A study of Homo sapiens with 4 samples.

Results

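The genes described here are the subunits, regulators and assembly chaperones of the proteasome. They were chosen by name, as every listed gene whose symbol is PSM followed by a letter from A to G and a number, and 46 of the 14431 listed genes met this rule. RNA-Seq was performed on HGC27 cells, a line of human gastric cancer. The 2 control libraries are labelled wild type and the 2 siAARS1 libraries AARS1 knockdown, and siAARS1 is a small interfering RNA against AARS1, the cytosolic alanyl-tRNA synthetase. All 4 were grown in DMEM without glucose, with 10% FBS, 1% antibiotics and 25 mM lactate, for 24 h by the labels (the text of the study gives another time), so no comparison with cells without lactate was possible. The labels do not say that the libraries came from separate cultures, so p-values measure only the spread between these samples, which may be technical.

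The proteasome degrades proteins that carry ubiquitin chains. Its core particle is a barrel of outer alpha rings (PSMA genes) and inner beta rings (PSMB genes), and the beta rings hold the cutting sites. A regulatory particle made of ATPases (PSMC genes) and other subunits (most PSMD genes) caps the barrel, binds the ubiquitin chain and unfolds the substrate. The activators (PSME genes) are caps of another kind, PSMF1 is an inhibitor, and the PSMG proteins help to build the core. In cells exposed to interferon the catalytic subunits PSMB5, PSMB6 and PSMB7 give way to inducible ones, which makes the immunoproteasome that favours peptides for display on MHC class I. PSMB8 takes the place of PSMB5, PSMB9 that of PSMB6 and PSMB10 that of PSMB7.

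Each library held between 30653210 and 33522573 reads in the listed genes. The library sizes recovered from the CPM were larger than these sums, by 1.72% and 1.89% in control and by 0.749% and 0.756% in siAARS1. By these sizes 1 read equalled 0.0293 to 0.0324 CPM. CPM is a read count scaled to library size and is not corrected for gene length. AARS1 (listed as AARS) was measured at 292 and 298 CPM in siAARS1 against 428 and 417 CPM in control, a log2 fold change of -0.52 (SE 0.0357, adjusted p = 2.52e-11). The residual level in the knockdown was 0.697 of control. Of the epithelial markers only KRT8 (24.8 and 25.2 CPM in control, 6.61 and 5.08 CPM in siAARS1) and CDH1 (0.680 to 2.55 CPM) were listed. EPCAM, KRT18 and KRT19 were not among the listed genes, nor were the gastric markers MUC5AC, TFF1, TFF2 and GKN1. COL1A1, a collagen gene typical of fibroblasts, had 1541 to 2399 CPM. Of the markers of the labelled cell type the listed genes thus held few. The part of KRT8 and COL1A1, which were both lower in siAARS1, in the results below was not tested.

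The proteasome genes were abundant and their summed RNA was nearly level between the groups. They summed to 6744 and 6769 CPM in siAARS1 against 6784 and 6647 CPM in control. The siAARS1 sums lay between the control sums. Of the CPM of all listed genes this was 0.690% and 0.677% in control and 0.680% and 0.682% in siAARS1. The median member had 133 CPM in control, against 21.8 CPM for the median of all genes tested. PSMA8 and PSMB11, which are known from testis and thymus, were not among the listed genes.

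Within this sum members moved in both directions. Of the 46 members 34 passed the threshold, an adjusted p-value under 0.05 in limma over 14199 genes tested, which was 73.9% of the members where 70.7% of all genes passed. There were 14 members higher in siAARS1 (30.4%, against 32.6% of all genes) and 20 lower (43.5%, against 38.0%). The libraries of the groups did not overlap for 39 members (84.8%, against 85.1% of all genes), with siAARS1 above both controls in 16 (38.5% of all genes) and below both in 23 (46.6% of all genes). These shares were near the background in this fit. With GC content and length corrected (described below) 47.8% of members were higher against 32.9% of all genes, and under median scaling 71.7% were lower against 56.3%. In bulk libraries fewer cells that express a gene and less of its RNA per cell cannot be told apart. The median log2 fold change of the members was -0.04 and that of all genes -0.05, and with the correction they were 0.07 and -0.01. Median scaling moved the median of all genes to -0.26 and that of the members to -0.27, and relative to all genes the members then lay at -0.01 in place of 0.01. Fold changes are differences of log2(CPM + 1), siAARS1 minus control.

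Changes were small for most members. For 31 of 46 (67.4%) the log2 fold change lay within 0.25 of 0, against 40.0% of all genes tested. The members also had a higher median level in control (133 against 21.8 CPM). Only 1 of them had a transcript with 59.1% GC or more, against 2764 of 13820 genes. The part of level and GC content in this share was not tested. By 1 or more on this log2 scale, 2 members rose (PSME4 and PSMC6) and PSMB9 fell, together 6.52% of the members. PSMD12 was just under it (0.99) through the added 1 CPM, since its ratio of mean CPM was 2.01. In edgeR with TMM, which also scales the libraries anew, its log2 fold change was 1.04. Of all genes 12.3% changed by 1 or more, with 10.6% higher and 1.63% lower. The plot of fold changes by role shows that the beta ring lay below 0 throughout while the other groups were mixed.

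**Figure D1:**
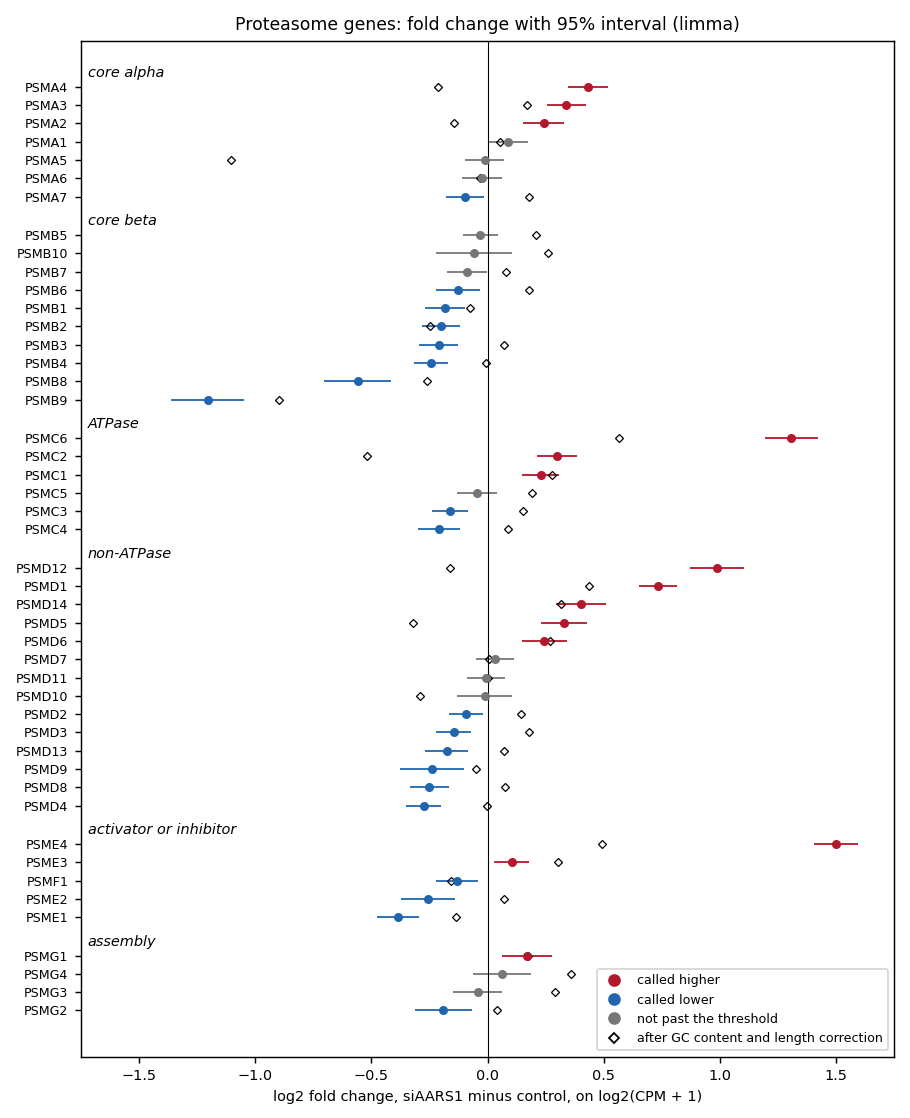
Log2 fold change of each of the 46 proteasome genes (x axis, siAARS1 minus control on log2(CPM + 1)), grouped by role and ordered within a group. Filled points are limma estimates with 95% intervals, coloured by the call, and open diamonds are the values after the correction for GC content and length. PSME4 (1.50) and PSMC6 (1.31) lie furthest to the right and PSMB9 (-1.20) furthest to the left, and many diamonds sit on the other side of 0 from their point.

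The fold changes followed the base composition of the transcripts, among the members as among all genes. Across the 46 members log2 fold change and transcript GC content had a rank correlation of -0.73, and fold change and transcript length one of 0.46. Across 13820 genes with these values it was -0.65 and 0.30. Genes are not independent replicates and the points share the same 4 libraries, so these values describe the libraries only. The median GC content was 42.3% for the 14 members called higher and 53.4% for the 20 called lower, and their median transcript lengths were 2742 and 1478.5 bases. In the GC quintile of lowest content, up to 41.5%, the median log2 fold change was 0.33 for the 8 members and 0.77 for all genes. In the fourth quintile, 52.7% to 59.1%, the 15 members were at -0.18 and all genes at -0.24.

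**Figure D2:**
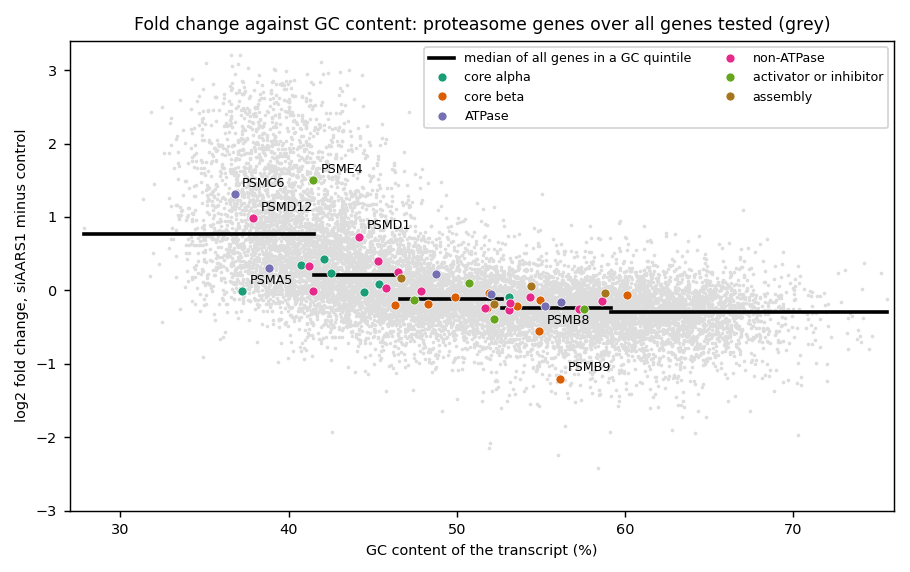
Log2 fold change (y axis, siAARS1 minus control) against transcript GC content in percent (x axis) for all genes tested (grey) and the 46 proteasome genes (coloured by role). Black lines are medians of all genes in each GC quintile and fall from 0.77 to -0.30. In the lowest quintile the 8 proteasome genes have a median of 0.33, below the line. Of these PSMA5 (-0.01) lies well below the line and PSME4 (1.50) above it. PSMB9 (-1.20) lies below the line of its quintile.

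A correction took the smooth trend with GC content and length out of each library, and with it any true change that follows these properties. After it 9 of the 14 members called higher were still higher and past the threshold and the other 5 (PSMA2, PSMA4, PSMC2, PSMD12 and PSMD5) had the opposite direction. Of the 20 called lower 6 were still lower and past the threshold (PSMB1, PSMB2, PSMB8, PSMB9, PSME1 and PSMF1), 3 were lower and not past it, and 11 had the opposite direction. How many of all called genes kept or turned their direction was not counted. The corrected value is given beside each main member below as the corrected log2 fold change. The part of GC content and length in the results was not tested beyond this correction.

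The largest rise was that of PSME4, the gene of the proteasome activator PA200, a large cap that opens the core without ATP. PSME4 (ENSG00000068878; chromosome 2, 53864067 to 53970840, minus strand, GRCh38) had 147 and 151 CPM in siAARS1 against 51.2 and 52.9 CPM in control. Both siAARS1 libraries were far above both controls, with means of 52.0 ± 1.17 and 149 ± 3.14 CPM (SD, n = 2). The log2 fold change was 1.50 (SE 0.0454, adjusted p = 1.63e-17) and the corrected one 0.49. Its transcript is the longest of the members, with 7099 bases and 41.5% GC. It overlaps ACYP2 on the other strand, and whether the authors counted by strand is not given in the sources used here.

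The other activators moved the other way or little before the correction. PSME1 and PSME2 encode the alpha and beta chains of PA28, an activator that interferon induces. PSME1 had 114 and 115 CPM in siAARS1 against 156 and 145 CPM in control, a log2 fold change of -0.39 (SE 0.0437, adjusted p = 8.24e-08) and a corrected one of -0.14. PSME2 had 115 and 112 CPM in siAARS1 against 148 and 125 CPM in control and its controls differed more from each other than the lower one differed from siAARS1. Its log2 fold change of -0.26 (adjusted p = 0.000361) did not pass in DESeq2 (-0.21) and was 0.07 after the correction. PSME3, the gamma activator of the nucleus, had a log2 fold change of 0.10 and a corrected one of 0.30, past the threshold. The uncorrected value turned to -0.13 under median scaling and was not past the threshold without control replicate 1. PSMF1, the inhibitor, was at -0.13 and did not pass without control replicate 2 (-0.11) or in edgeR with TMM (-0.09) and DESeq2 (-0.08). In all, 2 of these 5 genes were higher (40.0%, against 32.6% of all genes) and 3 lower (60.0%, against 38.0%).

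PSMC6 stood apart among the ATPases, the ring of the regulatory particle that unfolds substrates. PSMC6 (ENSG00000100519; chromosome 14, 52707172 to 52728587, plus strand) had 95.4 and 104 CPM in siAARS1 against 38.1 and 41.3 CPM in control. The groups did not come near each other, with means of 39.7 ± 2.24 and 99.6 ± 5.97 CPM (SD, n = 2). The log2 fold change was 1.31 (SE 0.0551, adjusted p = 4.74e-15) and the corrected one 0.56. Its transcript has the lowest GC content of the members, 36.8%. The 6 ATPases form 1 ring with 1 copy of each, yet the other 5 lay between -0.21 and 0.30. PSMC2 (0.30) and PSMC1 (0.23) were called higher, PSMC3 (-0.16) and PSMC4 (-0.21) lower, and PSMC5 (-0.04) did not pass. Under median scaling PSMC2 no longer passed (0.07) and PSMC1 was at -0.00. After the correction PSMC2 was at -0.52 and called lower. The other 5, PSMC6 among them, were then called higher, with PSMC1 at 0.28, PSMC3 at 0.15, PSMC4 at 0.09 and PSMC5 at 0.19. Of all genes 32.9% were higher after the correction. The median of the 6 ATPases was 0.09 before it and 0.17 after it. PSMC1 has 13 named pseudogenes, so its reads could be shared with them.

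The promoters of the members with the largest changes, and of PSMB10, are printed to show the sequence upstream of genes that moved apart. Each is the 250 bases before the transcript start in RefSeq on GRCh38.p14, written 5′ to 3′ on the strand of the gene, with matches to the searched motifs in capitals. PSME4 lies at chr2:53970994-53971243 (minus strand), PSMC6 at chr14:52706950-52707199 (plus strand), PSMB9 at chr6:32853942-32854191 (plus strand) and PSMB10 at chr16:67936851-67937100 (minus strand).
PSME4: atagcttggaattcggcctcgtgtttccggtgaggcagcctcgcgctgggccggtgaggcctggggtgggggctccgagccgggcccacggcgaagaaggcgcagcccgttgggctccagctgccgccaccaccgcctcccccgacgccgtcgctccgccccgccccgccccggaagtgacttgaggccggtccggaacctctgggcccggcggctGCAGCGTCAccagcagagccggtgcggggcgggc
PSMC6: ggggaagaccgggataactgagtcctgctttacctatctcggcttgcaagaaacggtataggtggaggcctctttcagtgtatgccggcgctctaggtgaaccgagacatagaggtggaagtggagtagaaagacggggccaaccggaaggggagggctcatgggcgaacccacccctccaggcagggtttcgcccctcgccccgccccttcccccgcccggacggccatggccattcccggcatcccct
PSMB9: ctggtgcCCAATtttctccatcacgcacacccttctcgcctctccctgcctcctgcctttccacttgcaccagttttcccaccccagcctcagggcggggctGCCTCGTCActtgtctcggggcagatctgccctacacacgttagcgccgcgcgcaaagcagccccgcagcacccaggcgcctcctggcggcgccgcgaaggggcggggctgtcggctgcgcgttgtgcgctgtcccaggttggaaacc
PSMB10: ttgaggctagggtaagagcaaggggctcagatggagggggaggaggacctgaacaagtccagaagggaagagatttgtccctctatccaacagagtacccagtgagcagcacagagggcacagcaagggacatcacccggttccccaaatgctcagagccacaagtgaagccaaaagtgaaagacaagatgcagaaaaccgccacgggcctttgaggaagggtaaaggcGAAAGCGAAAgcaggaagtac
The PSME4 promoter held the antioxidant response element core on its other strand, 34 bases before the start. PSMB9 held the same core on its other strand, 148 bases before the start, and a CCAAT box 243 bases before it. PSMB10 held an interferon-stimulated response element 21 bases before the start, and PSMC6 held no match. The PSMB9 start used by RefSeq lies inside the longer gene that GENCODE v29 gives.

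Promoters of 40 members were matched by symbol in the RefSeq table, and those of PSMA7, PSMB1, PSMB6, PSMB7, PSMD4 and PSMG3 were not. Of the 14431 listed genes 9725 were matched, and the shares of listed genes below are of these 9725. The motifs were searched on both strands. The antioxidant response element core TGACNNNGC, the site bound by NFE2L1 and NFE2L2 with small MAF proteins, was present in 13 of 40 members (32.5%), in 13.2% of 27305 genes and in 15.8% of the listed genes. It was in 5 of the 14 members called higher, 7 of the 16 matched members called lower and 1 of 10 that did not pass, so both directions held it. The box CCAAT was present in 18 of 40 (45%), in 37.0% of genes and in 42.1% of the listed ones. The interferon-stimulated response element (GAAA, any 2 bases, GAAA) was present in 5 of 40 (12.5%), in 3.71% of genes and in 3.35% of the listed ones. The 5 were PSMA4, PSMB10, PSMB4, PSME2 and PSMG4, and the letters GAAAGCGAAA stood in PSMB10, PSME2 and PSMG4. The gamma-activated site TTCNNNGAA was present in 6 of 40 (15%), PSMB8 among them, in 8.09% of genes and in 7.39% of the listed ones. A match is a description of letters and not of binding, and a gene with several starts counts once if any start holds the motif.

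In the beta ring the calls went in 1 direction. Of its 10 members 7 were lower (70.0%, against 38.0% of all genes), 0 higher (against 32.6%) and 3 did not pass in limma, and the median log2 fold change was -0.19 against -0.05 for all genes. All 10 values were below 0, so 0 members were higher at an unadjusted p-value as well, and edgeR with TMM and DESeq2 also called 0 higher, with 6 lower each. In no fit without the GC content and length correction was a beta member called higher, while after the correction 4 were higher, 4 lower and the median was 0.03. PSMB9 (ENSG00000240065; chromosome 6, 32844136 to 32859585, plus strand), an inducible catalytic subunit, had 14.5 and 14.4 CPM in siAARS1 against 36.6 and 32.7 CPM in control. Both siAARS1 libraries were far below both controls, with means of 34.7 ± 2.75 and 14.5 ± 0.0700 CPM (SD, n = 2). The log2 fold change was -1.20 (SE 0.0754, adjusted p = 4.99e-12) and the corrected one -0.90.

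PSMB8, its neighbour on chromosome 6 (32840717 to 32844703, minus strand) and the inducible partner of PSMB5, fell as well. It had 29.3 and 25.7 CPM in siAARS1 against 42.6 and 39.3 CPM in control, without overlap. The log2 fold change was -0.56 (SE 0.0694, adjusted p = 3.28e-07) and the corrected one -0.26. By contrast PSMB10 had 19.0 and 17.6 CPM in siAARS1 against 19.2 and 19.0 CPM in control, and the groups overlapped. Its log2 fold change was -0.06 (95% interval -0.22 to 0.10, adjusted p = 0.506), and the corrected one was 0.26 and called higher (adjusted p = 0.00364). PSMB8 and PSMB9 overlap each other on opposite strands, both overlap the antisense gene PSMB8-AS1 (listed as TAPSAR1, log2 fold change -0.62), and PSMB9 also overlaps TAP1, so without strand their reads cannot be fully told apart.

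**Figure D3:**
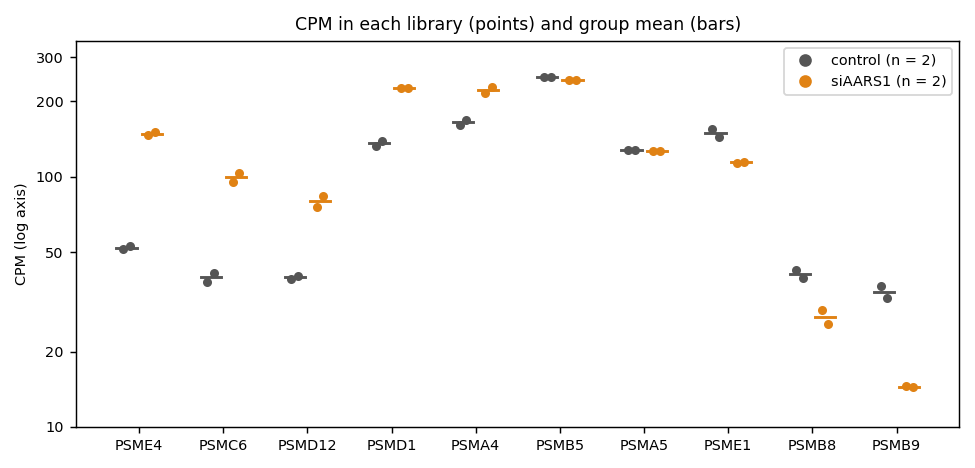
CPM on a log axis (y axis) in each library for 10 proteasome genes (x axis), with control in grey and siAARS1 in orange (n = 2 each). Points are libraries and bars are group means; PSME4 goes from 52.0 to 149 CPM, PSMB9 from 34.7 to 14.5 CPM, and the points of PSMB5 and PSMA5 sit side by side.

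The constitutive catalytic subunits lay close to 0 or below it before the correction and above 0 after it. PSMB5, which cuts after hydrophobic residues, had 251 and 250 CPM in control and 245 in both siAARS1 libraries, a log2 fold change of -0.03 (95% interval -0.11 to 0.04). Its corrected value was 0.21, past the threshold, as were those of PSMB6 (0.18) and PSMB7 (0.08). PSMB7 was at -0.09 and did not pass (adjusted p = 0.0567), although it did without control replicate 2 (-0.13). PSMB6 was at -0.13 and called lower, and was not past the threshold without control replicate 1 (-0.07) or siAARS1 replicate 1 (-0.11). The 4 beta subunits without a cutting site (PSMB1, PSMB2, PSMB3 and PSMB4) were all called lower, between -0.24 and -0.18, but after the correction PSMB3 was at 0.07 and PSMB4 at -0.01, neither past the threshold, and the median of the 4 went from -0.21 to -0.04. PSMB4, the most abundant of the 46 members, had 445 and 440 CPM in siAARS1 against 533 and 516 CPM in control.

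Within a library the ratio of an inducible subunit to the one it replaces is free of the scaling between libraries. PSMB9 to PSMB6 was 0.277 ± 0.00640 in control and 0.126 ± 0.00300 in siAARS1 (SD, n = 2), or 0.457 of control. PSMB8 to PSMB5 was 0.164 ± 0.00871 and 0.112 ± 0.0106, or 0.687 of control. Neither ratio overlapped between the groups. PSMB10 to PSMB7 was 0.109 ± 0.00335 and 0.111 ± 0.00784, or 1.02 of control, and overlapped. With 2 libraries against 2 an exact permutation test, two-sided, cannot give a p below 0.333, so no test of these ratios is given. The inducible subunits and the PA28 chains (PSMB8, PSMB9, PSMB10, PSME1 and PSME2), grouped after their values were seen, were 4 lower and 1 not past the threshold, and their median was -0.39 where that of the other 41 members was -0.02. Of all genes 38.0% were lower. After the correction these medians were -0.14 and 0.07, with PSME2 at 0.07 and PSMB10 at 0.26.

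**Figure D4:**
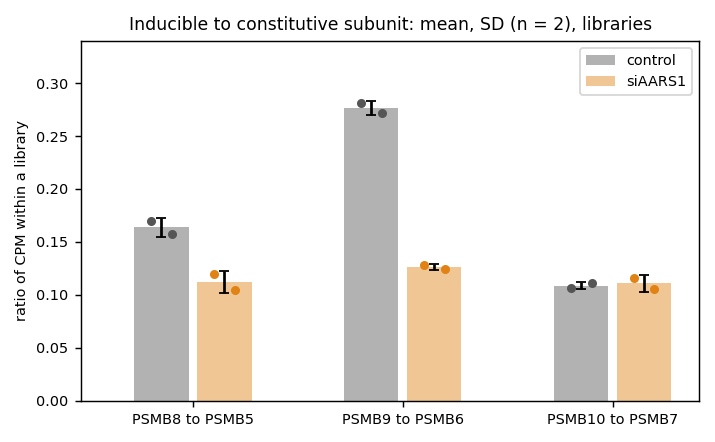
Ratio of CPM of each inducible catalytic subunit to the constitutive one it replaces (y axis, starting at 0). Bars are means, error bars are the SD of 2 libraries and points are libraries; the ratio falls from 0.277 to 0.126 for PSMB9 to PSMB6 and from 0.164 to 0.112 for PSMB8 to PSMB5, and is 0.109 and 0.111 for PSMB10 to PSMB7.

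The alpha ring gates the entrance of the core. Of its 7 members 3 were higher (42.9%, against 32.6% of all genes), 1 lower (14.3%, against 38.0%) and 3 did not pass. Their median was 0.09 (-0.03 after the correction). PSMA4 had 217 and 229 CPM in siAARS1 against 161 and 169 CPM in control, a log2 fold change of 0.43 (SE 0.0409, adjusted p = 5.17e-09). The corrected value depended on the transcript used, -0.21 with the longest principal transcript of 4411 bases and 0.14 with the shortest of 1094 bases. PSMA3 (0.34, corrected 0.17) kept its direction and call in both corrections, and PSMA2 (0.24, corrected -0.14) did not. The identifier of the PSMA2 row belongs in GENCODE v29 to AC010132.3, a gene that overlaps PSMA2. The length (2430 bases) and GC content (42.5%) used for PSMA2 are those of AC010132.3. The corrected value of PSMA2 and its level per kilobase rest on them. PSMA3 overlaps antisense genes, so the values of both PSMA2 and PSMA3 are uncertain. PSMA5 had 128 CPM in both control libraries and 127 in both siAARS1 libraries, a log2 fold change of -0.01. Its transcript is long and poor in GC (3729 bases, 37.2%) and the correction moved it to -1.10. PSMA1 (0.09, adjusted p = 0.0533) and PSMA6 (-0.02) did not pass either, although PSMA1 did in edgeR with TMM (0.13) and DESeq2 (0.14). PSMA7 was called lower at -0.10 and did not pass without control replicate 1 (-0.04), siAARS1 replicate 1 (-0.11) or siAARS1 replicate 2 (-0.09), nor in edgeR with TMM or DESeq2.

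The non-ATPase genes held both rises and falls. Of 14 members 5 were higher (35.7%, against 32.6% of all genes), 6 lower (42.9%, against 38.0%) and 3 did not pass. Their median was -0.01 (0.04 after the correction). PSMD12, a scaffold subunit of the lid, had 75.7 and 83.7 CPM in siAARS1 against 39.1 and 40.2 CPM in control. Both siAARS1 libraries were well above both controls. The log2 fold change was 0.99 (SE 0.0555, adjusted p = 7.75e-13), and the correction turned it to -0.16. PSMD1, the large base subunit that binds ubiquitin receptors, had 227 and 226 CPM in siAARS1 against 133 and 139 CPM in control. Its log2 fold change of 0.73 (SE 0.0395, adjusted p = 3.73e-13) was 0.44 after the correction, in the same direction.

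PSMD14, the lid enzyme that removes ubiquitin chains from the substrate, was also higher. It had 72.2 and 67.3 CPM in siAARS1 against 53.5 and 51.6 CPM in control, a log2 fold change of 0.40 (SE 0.0523, adjusted p = 6.45e-07) and a corrected one of 0.32. PSMD4, a receptor for ubiquitin chains, had 240 and 243 CPM in siAARS1 against 293 and 291 CPM in control, a log2 fold change of -0.27 (SE 0.0361, adjusted p = 7.72e-07) and a corrected one of -0.00. PSMD2, the other large base subunit, was at -0.09 and did not pass when control replicate 1 (-0.08), control replicate 2 (-0.11) or siAARS1 replicate 1 (-0.09) was left out. The other lid genes were PSMD6 (0.24), PSMD8 (-0.25), PSMD13 (-0.18) and PSMD3 (-0.15), all called, and PSMD7 (0.03) and PSMD11 (-0.01), which did not pass. PSMD6 did not pass under median scaling (0.02). The correction turned PSMD8 and PSMD13 to 0.07 each and PSMD3 to 0.18, and PSMD2 to 0.14.

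Before the correction the chaperones of assembly showed no common direction. Of those that help the ATPase ring to form, PSMD5 (0.33, corrected -0.32) was higher, PSMD9 (-0.24, corrected -0.05) lower and PSMD10 (-0.01) not past the threshold. The corrected value of PSMD10 was -0.29, past the threshold. PSMD9 did not pass without control replicate 2 (-0.18) or in DESeq2 (-0.19). Of the 4 chaperones of the core, PSMG1 had 57.9 and 60.2 CPM in siAARS1 against 53.1 and 51.6 CPM in control, a log2 fold change of 0.17 (adjusted p = 0.00583), which turned to -0.05 under median scaling and did not pass without control replicate 2 (0.15). PSMG2, its partner in a heterodimer, had 42.4 and 45.9 CPM in siAARS1 against 48.7 and 52.4 CPM in control, a log2 fold change of -0.19 (adjusted p = 0.00659, corrected 0.04), which did not pass without control replicate 2 (-0.14) or siAARS1 replicate 1 (-0.13). PSMG3 (-0.04) and PSMG4 (0.06) did not pass, and their groups overlapped. After the correction PSMG1 (0.17), PSMG3 (0.29) and PSMG4 (0.36) were called higher and 0 of the 4 lower, where 32.9% of all genes were higher. The median of the 4 went from 0.01 to 0.23. PSMG3 overlaps PSMG3-AS1 on the other strand, which was at -0.67.

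Per kilobase of transcript the medians of the alpha and beta rings stood above those of the ATPase and non-ATPase groups. The median in control was 155 CPM per kb for the beta ring, 104 for the alpha ring, 57.3 for the ATPases, 45.4 for the non-ATPases, 96.9 for the activators and inhibitor and 40.0 for the assembly chaperones. In siAARS1 these medians were 139, 110, 56.1, 54.7, 80.7 and 38.0 CPM per kb. The non-ATPase group includes the assembly chaperones PSMD5, PSMD9 and PSMD10, which had 18.3, 12.5 and 26.8 CPM per kb in control. PSMB4 was the highest member (544 in control, 459 in siAARS1), followed by PSMA7 (272 and 254). PSME4 (7.33 and 21.0) and PSMD12 (9.01 and 18.1) were the lowest in control. The levels depend on the transcript taken for the length, as PSMA4 shows with 37.4 or 151 CPM per kb in control. With the shortest principal transcript the direction of the medians between groups turned for the alpha ring (117 in control and 115 in siAARS1) and the ATPases (59.0 and 62.2). The plot of levels per kilobase shows that the largest rises began from low levels per length.

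**Figure D5:**
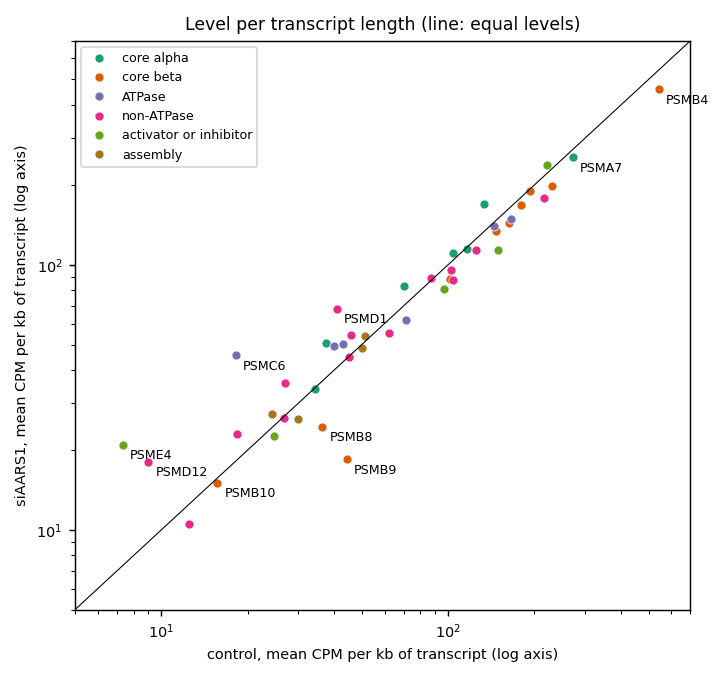
Mean CPM per kilobase of transcript of the 46 proteasome genes in siAARS1 (y axis) against control (x axis), both log axes, coloured by role, with a line of equal levels. PSME4 (7.33 to 21.0), PSMD12 (9.01 to 18.1) and PSMC6 (18.1 to 45.5) lie above the line at low levels, PSMB9 (44.3 to 18.5) lies below it, and PSMB4 (544 to 459) is at the top right.

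Among 18 proteasome-associated proteins outside the naming rule 8 were higher (44.4%, against 32.6% of all genes). Of the others 4 were lower (22.2%, against 38.0%) and 6 did not pass. Their median was 0.10 against -0.05 for all genes. After the correction it was -0.28 against -0.01. UCHL5, a deubiquitinase bound to the regulatory particle, rose from 15.1 and 16.3 CPM to 35.1 and 40.5 CPM, a log2 fold change of 1.21, but was at -0.21 after the correction. USP14, the other such deubiquitinase, was at 0.55 and at -0.66 after it. KIAA0368, the gene of the adaptor ECPAS, was at 0.96 and 0.40 after the correction. AKIRIN2, which carries proteasomes into the nucleus, fell from 64.3 and 62.6 CPM to 42.3 in both siAARS1 libraries, a log2 fold change of -0.57 and -0.31 after the correction. POMP, the maturation chaperone of the beta ring, was at 0.26 (corrected -0.36) and ADRM1, a ubiquitin receptor, at -0.15 (corrected 0.21). SHFM1, the gene of the lid subunit SEM1, was at 0.11 and did not pass (adjusted p = 0.0641).

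Of 11 genes for the transcription of proteasome genes 5 were higher (45.5%, against 32.6% of all genes), 5 lower (45.5%, against 38.0%) and 1 did not pass. NFE2L1, the factor that raises proteasome genes when the proteasome is impaired, had 299 and 287 CPM in siAARS1 against 330 and 328 CPM in control, a log2 fold change of -0.17 (adjusted p = 0.000401) that was 0.11 after the correction. DDI2, the protease that activates NFE2L1, rose from 18.2 CPM in both controls to 53.8 and 53.5 CPM, a log2 fold change of 1.51 (corrected 0.49). NFE2L2, the factor of the oxidative stress response, rose from 33.7 and 37.5 CPM to 87.5 and 89.2 CPM, a log2 fold change of 1.29 (SE 0.0558, adjusted p = 7.53e-15) and still 1.17 after the correction. MAFF, a small partner of these factors, was at -0.87, from 2.52 and 2.90 CPM to 1.07 and 0.993 CPM. These are RNA levels and do not measure the activity of either factor.

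Upstream of the proteasome, 1 of the 6 genes for ubiquitin and its activating enzymes was higher, 4 were lower and 1 did not pass. UBA6, an activating enzyme, rose from 8.83 and 10.5 CPM to 60.7 and 69.3 CPM, a log2 fold change of 2.63 (corrected 1.03). The ubiquitin gene UBB fell, with a log2 fold change of -0.46 (corrected -0.24). The COP9 signalosome, a complex built like the lid, had 4 of 10 genes higher and 3 lower. COPS2 rose from 15.8 and 16.3 CPM to 73.5 and 79.4 CPM (log2 fold change 2.18, corrected 0.59), and COPS4 (0.83, corrected 0.52) and COPS5 (0.45, corrected 0.32) were higher as well. Of 9 genes of peptide loading that work with the immunoproteasome 3 were higher and 4 lower. TAP1, the peptide transporter gene next to PSMB9, was at -0.56 (corrected -0.26) and TAPBP at -0.43 (corrected -0.10), and ERAP2, a peptide trimming enzyme, was at 1.02 (corrected 0.01). The lists were described by their counts, for which all genes gave 32.6% higher and 38.0% lower.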

How the data were processed

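RNA-Seq of 4 HGC27 libraries was analysed. The authors deposited 1 table of CPM values per gene, and the submitters' processing notes name RSEM 1.3.3 and hg38. The annotation, the use of strand and the role of RSEM are not given in the sources used here. Per library, 100% of the values corresponded to whole reads (tolerance 0.00051 CPM), and 3 reads, the limit that 0 reads allow, equalled 0.0880 to 0.0971 CPM, for counting error only. Libraries of a group differed beyond sampling noise (chi-square per gene 3.63 and 3.62) and were used as separate samples.

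Groups came from the sample titles. The members and lists were chosen with earlier results of these data known. siAARS1 was compared with control by limma 3.58.1 (R 4.3.3, eBayes with a trend) on log2(CPM + 1) over 14199 genes that reached a group mean of 1 CPM, all 46 members among them. The Benjamini-Hochberg adjustment ran over all of these genes. Every member, AARS1, up to 3 called genes of each list with the largest change, and a few genes by role could be named. Alternatives were a pseudocount of 0.1, no filter, median scaling, quantile normalization, a threshold of 0.01, the replicate block, leaving out each library, and edgeR 4.0.16 (TMM, RLE or library size only) and DESeq2 1.42.0 on recovered reads. Lengths, GC content and coordinates came from GENCODE v29 (97.2% of genes), and the correction used smooths of GC content and length (mgcv 1.9.3). Its repeat on the shortest principal transcript, and the same genes uncorrected, were added after the data were seen. The scripts were tested on simulated data.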

Additional observations from a re-analysis of the deposited data

How the results depend on the processing

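A pseudocount of 0.1, no filter, and the same 13820 genes without the correction changed no call of a member. Under every alternative but the threshold of 0.01, 5 of the 14 higher members kept direction and call (PSMA3, PSMC6, PSMD1, PSMD14 and PSME4). So did 5 of the 20 lower members (PSMB1, PSMB2, PSMB8, PSMB9 and PSME1). How many of all called genes did so was not counted, so no background stands beside these counts. The threshold of 0.01 left 29 of 34 calls, and these 10 members were not among the 5 lost (PSMA7, PSMB6, PSMD2, PSME3 and PSMF1). What lies behind the changes given next was not tested, except that median scaling moves all genes of a library alike. Precision is limited by 2 libraries per group.

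Members called higher were 7 under median scaling, 22 with GC content and length corrected and 23 on the shortest principal transcript (14 as reported), or 15.2%, 47.8% and 50% of members against 23.8%, 32.9% and 32.8% of all genes. Members called lower were 33 under median scaling, 13 in DESeq2, and 13 after each correction (20 as reported), or 71.7%, 28.3% and 28.3% of members against 56.3%, 27.2% and 33.3% of all genes (33.9% on the shortest transcript). Median scaling also left PSMA2, PSMC2, PSMD5 and PSMD6 short of the threshold, DESeq2 7 members (PSMA7, PSMB6, PSMD2, PSMD9, PSME2, PSMF1 and PSMG2), and edgeR with TMM 4 of these (PSMA7, PSMB6, PSMD2 and PSMF1). The ubiquitin list had 3 calls after the correction in place of 5. The members' median log2 fold change was -0.27 under median scaling, -0.091 under quantile normalization, -0.0068 with TMM, 0.0078 with RLE, 0.008 in DESeq2, 0.0715 after the correction and 0.0714 on the shortest transcript. It ranged from -0.071 to -0.031 when 1 library was left out.

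The groups share replicate numbers, but nothing says that a number marks a pair, and deviations of same-numbered libraries correlated at 0.111. With the replicate block 36 members were called, 15 higher (2 members, PSMA1 at 0.09 and PSMB7 at -0.09, newly passed and 0 were lost). The block with the correction gave 13 members lower (28.26%, against 33.43% of all genes) and 3 calls in the ubiquitin list. It gave a median of 0.0715 and the same reversed values as the correction alone.

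Direction reversed under median scaling for PSMC1 (-0.00048), PSMG1 (-0.054) and PSME3 (-0.13). It reversed under the correction, and on the shortest principal transcript, for PSMD12 (-0.16 and -0.22), PSMD5 (-0.32 and -0.42), PSMC2 (-0.52 and -0.58), PSMD8 (0.073 and 0.073), PSMC4 (0.089 and 0.080), PSMA2 (-0.14 and -0.25), PSMB3 (0.072 and 0.022), PSME2 (0.070 and 0.070), PSMD13 (0.071 and 0.061), PSMC3 (0.15 and 0.15), PSMG2 (0.042 and 0.027), PSMD3 (0.18 and 0.18), PSMB6 (0.18 and 0.14), PSMD2 (0.14 and 0.14), PSMA7 (0.18 and 0.14), UCHL5 (-0.21 and -0.23), USP14 (-0.66 and -0.71), POMP (-0.36 and -0.43), NFE2L1 (0.11 and 0.10) and ADRM1 (0.21 and 0.21). PSMA4 reversed under the first only (-0.21) and ERAP2 under the other only (-0.047).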

Other observations

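Other genes of the same loci were listed and lay outside the naming rule. PSMA3-AS1, listed as RP11-349A22.5, which overlaps PSMA3, had 25.2 and 30.1 CPM in siAARS1 against 11.1 and 12.01 CPM in control, a log2 fold change of 1.18, against 0.34 for PSMA3. PSMD5-AS1 was at 0.36 beside 0.33 for PSMD5. TAPSAR1, at -0.62, lay beside -0.56 for PSMB8 and -1.20 for PSMB9. PSMG3-AS1 was at -0.67 where PSMG3 (-0.04) did not pass. BECN1, the autophagy gene that overlaps PSME3, was at -0.16 beside 0.10. These genes were chosen after their values were seen, and reads shared between overlapping genes were not tested.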
